A study of Mus musculus and Homo sapiens with 47 samples.

Results

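Interferon-gated epithelial cells were a small set of sorted mouse intestinal cells that carried many transcripts of 5 interferon-induced genes, Ifit1, Ifit2, Ifit3, Isg15 and Usp18. They were taken from droplet-based 3' single-cell RNA libraries by a fixed rule. A barcode was kept when it held at least 2500 unique molecular identifiers (UMIs, each standing for a captured transcript) over at least 500 genes, with no more than 20% of them mitochondrial. It was gated when it also had no UMI of Ptprc, the leukocyte surface phosphatase CD45, and at least 8 UMIs over the 5 genes with at least 3 of them detected. At labelled day 7 this gave 48 of 3833 kept cells, and at labelled day 12 it gave 105 of 4664, so 153 of 8497 cells in all. With the day 16 library, the single-cell part of the series held 11289 kept cells. All other kept cells of the same day served for comparison.

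The mice carried the genotype Eed F/F; Lgr5EGFP-IRES-CreERT on a B6;129 mixed background, so Eed, a core subunit of Polycomb repressive complex 2 (PRC2), was floxed and Cre and GFP were driven at the stem cell gene Lgr5. Adult animals received tamoxifen on 5 consecutive days and on alternate days thereafter, and cells with GFP were sorted out of proximal intestinal epithelium released with EDTA and TrypLE. Gated and other cells shared genotype, treatment, sort and library, and the source label calls all 3 libraries villus cells although the protocol describes a sort for stem cells. Each of the 3 days, 7, 12 and 16, had 1 library, and the labels leave unsaid from when days are counted. A wild-type single-cell library was not analysed here. With 1 library a day there was no test of a difference, and intervals below are exact 95% intervals that cover counting error only. Eed itself had 44.9 CPM (UMIs per 1000000, summed over cells) in gated cells and 54.5 CPM in other cells at day 7, against 24.1 CPM in gated cells and 27.6 CPM in other cells at day 12. Whether these 3' reads lie inside the floxed part is not given in the sources used here, so they do not check recombination.

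Interferons are secreted proteins that cells release on sensing viral or self nucleic acid. Type I and type III interferons act through the kinases JAK1 and TYK2 on a transcription factor complex that includes IRF9 and binds the interferon-stimulated response element in promoters. Type II interferon acts on another promoter element, the gamma-activated site. The intestinal epithelium is a well known target of type III interferon, while type II interferon raises its antigen presentation and its guanylate-binding proteins.

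The promoters of several leading genes are shown, picked because they hold the letters of a core of the response element. A core of that element, GAAA and GAAA with any 2 bases between, was searched on both strands in RefSeq promoters of GRCm38.p6, each running from 250 bases before to 50 after an annotated start. It was found in 1131 of 32851 promoters, 3.44%. Of the 5 gate genes, 4 were matched in the promoter table and 3 of these held it. Capitals mark the matches, also where it is the other strand that reads so. The promoters are those of Ifit1 (chr19:34640639-34640938, plus strand), Ifit3 (chr19:34583279-34583578, plus strand), Isg15 (chr4:156200769-156201068, minus strand), Rsad2 (chr12:26456403-26456702, minus strand) and Cxcl10 (chr5:92348840-92349139, minus strand).
Ifit1: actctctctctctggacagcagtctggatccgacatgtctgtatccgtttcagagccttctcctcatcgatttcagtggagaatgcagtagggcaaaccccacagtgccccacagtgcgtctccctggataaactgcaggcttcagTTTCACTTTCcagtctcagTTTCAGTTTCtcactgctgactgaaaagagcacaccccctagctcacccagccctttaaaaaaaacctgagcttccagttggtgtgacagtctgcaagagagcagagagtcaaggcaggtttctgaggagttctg
Ifit3: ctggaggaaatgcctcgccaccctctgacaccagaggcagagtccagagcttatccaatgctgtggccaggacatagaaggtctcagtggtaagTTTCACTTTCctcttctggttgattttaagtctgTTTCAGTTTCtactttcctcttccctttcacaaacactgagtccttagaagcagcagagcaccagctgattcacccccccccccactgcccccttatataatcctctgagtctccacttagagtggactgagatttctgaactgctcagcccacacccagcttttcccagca
Isg15: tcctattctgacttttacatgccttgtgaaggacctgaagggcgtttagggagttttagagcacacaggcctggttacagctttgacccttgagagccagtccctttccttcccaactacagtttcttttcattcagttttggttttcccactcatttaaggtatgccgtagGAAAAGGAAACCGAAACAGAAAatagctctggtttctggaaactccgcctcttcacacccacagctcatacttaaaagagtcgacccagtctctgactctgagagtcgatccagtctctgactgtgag
Rsad2: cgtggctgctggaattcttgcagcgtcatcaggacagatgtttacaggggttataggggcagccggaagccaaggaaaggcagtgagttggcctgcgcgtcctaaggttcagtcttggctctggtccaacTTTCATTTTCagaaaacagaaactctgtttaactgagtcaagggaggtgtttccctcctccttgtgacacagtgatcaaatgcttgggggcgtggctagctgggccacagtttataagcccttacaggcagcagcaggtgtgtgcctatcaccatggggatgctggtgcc
Cxcl10: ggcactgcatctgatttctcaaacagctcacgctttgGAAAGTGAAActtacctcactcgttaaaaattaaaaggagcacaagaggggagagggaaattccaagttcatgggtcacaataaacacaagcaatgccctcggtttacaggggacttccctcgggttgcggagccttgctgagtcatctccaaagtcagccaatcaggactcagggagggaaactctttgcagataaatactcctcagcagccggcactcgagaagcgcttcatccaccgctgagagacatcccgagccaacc

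In Ifit1 the matches began 104 and 85 bases upstream of the start, and in Ifit3 they began 156 and 122 bases upstream. Isg15 held 3 overlapping matches, which began 78, 72 and 66 bases upstream and print as one run of capitals. Rsad2 had a single match 120 bases upstream and Cxcl10 a single match 213 bases upstream. Neither annotated Ifit2 promoter held these letters in its window, and Usp18 was not among the matched genes. A match describes letters and is no evidence of binding.

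The cells were chosen by their measured UMIs of the 5 genes, so the levels of these genes are a description and support nothing. Ifit1, Ifit2 and Ifit3 encode tetratricopeptide proteins that bind foreign RNA or act in antiviral signalling. Isg15 encodes a ubiquitin-like protein that is conjugated to other proteins, and Usp18 removes it and restrains the type I receptor. Ifit1 stood at 351 CPM in gated cells and 5.20 CPM in other cells at day 7, a ratio of 67.5 (54.5 to 83.6). At day 12 Ifit1 stood at 561 CPM in gated cells and 9.58 CPM in other cells, a ratio of 58.5 (51.4 to 66.7). Both days thus gave Ifit1 a ratio near the same size, with intervals that overlap.

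Isg15 stood at 993 CPM in gated cells and 39.5 CPM in other cells at day 7, and at 1214 CPM in gated cells and 45.0 CPM in other cells at day 12. It was detected in all 48 and all 105 gated cells, with a median of 9 and 10 UMIs per cell, and in 20.6% and 19.7% of other cells at days 7 and 12. Isg15 alone could therefore not give a gated cell, since 3 genes had to be detected. Ifit2 stood at 318 CPM in gated cells and 9.14 CPM in other cells at day 7, and at 307 CPM in gated cells and 7.99 CPM in other cells at day 12. Ifit3 stood at 306 CPM in gated cells and 2.43 CPM in other cells at day 7, and at 248 CPM in gated cells and 1.71 CPM in other cells at day 12. Its near-identical copies could share reads with it, so the Ifit3 values are uncertain in that respect. Usp18 differed most between days: its ratio was 58.3 (41.0 to 82.6) at day 7 and 15.4 (13.2 to 17.9) at day 12. In other cells Usp18 had 2.17 CPM at day 7 and 14.2 CPM at day 12, while gated cells had 126 CPM at day 7 and 218 CPM at day 12.

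Gated cells varied widely in the sum over the 5 genes. At day 7 a gated cell held 8 to 68 UMIs with a median of 16.5, and at day 12 it held 8 to 137 UMIs with a median of 19. All 5 genes were detected in 14 gated cells at day 7 and 35 at day 12, 4 of them in 15 and 30 cells, and 3 of them in 19 and 40 cells. Just inside the gate, with 8 or 9 UMIs, lay 7 cells at day 7 and 11 at day 12. Just outside it, with 6 or 7 UMIs, lay 32 cells at day 7 and 48 at day 12, of which 12 and 26 had at least 3 genes detected. A further 11 cells at day 7 and 32 at day 12 reached 8 UMIs with fewer than 3 genes. The gate thus cuts through a continuous range of values and does not separate 2 populations. Only 1 kept cell at day 7 and 2 at day 12 held a Ptprc UMI, and none of them met the rest of the rule. So few cells cannot show whether leukocytes would meet it.

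**Figure D1:**
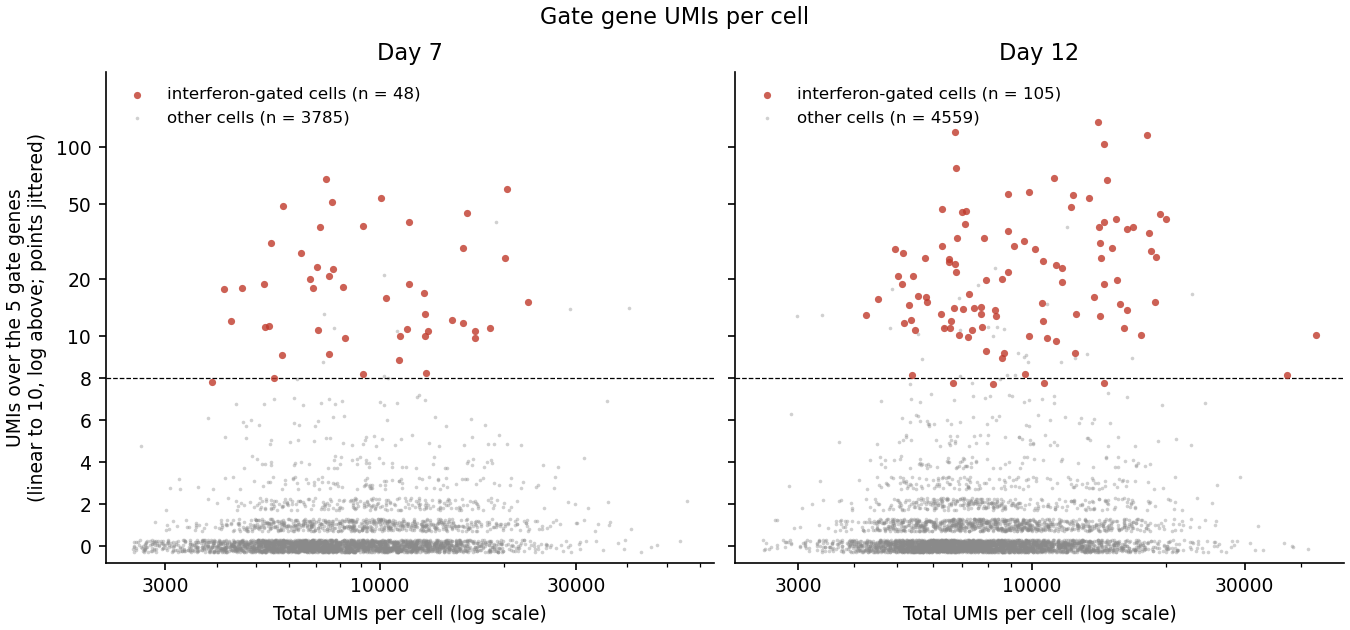
Each point is a kept cell of day 7 (left) or day 12 (right), with its total UMIs on a log x axis and its UMIs over the 5 gate genes on the y axis (linear to 10, log above, jittered). Red points are the 48 and 105 gated cells, grey points the other cells, and the dashed line marks 8 UMIs; grey points above it had fewer than 3 of the 5 genes.

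The share of gated cells was 1.25% (0.925 to 1.66) at day 7 and 2.25% (1.84 to 2.72) at day 12. At day 16, 1 of 2792 kept cells met the rule, 0.0358% (0.000907 to 0.199). That cell held 8 UMIs of Ifit1, 0 of Ifit2, 8 of Ifit3, 19 of Isg15 and 1 of Usp18 among 11390 UMIs, and its mitochondrial share was 18.9%. Depth did not follow the share: the median was 7944 UMIs per other cell at day 7, 7558 at day 12 and 11875 at day 16. Cells with none of the 5 genes made up 71.8% of other cells at day 7, 66.7% at day 12 and 91.1% at day 16. Days are single libraries, so a difference between them cannot be told apart from a difference between animals or preparations.

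Quality of the gated cells lay close to that of the rest, while their depth was somewhat higher. A gate of 8 UMIs is easier to meet in a deep cell. Upper quartiles were 12903.5 UMIs in gated cells and 11404 in other cells at day 7. At day 12 they were 14150 and 10098.5 UMIs. Gated cells had a median of 8645 UMIs at day 7 and 8831 UMIs at day 12, and other cells had 7944 and 7558 UMIs at those days. Median genes per cell were 2817 and 2922 in gated cells, against 2573 and 2658 in other cells. Median mitochondrial shares were 7.73% and 5.75% in gated cells, against 8.82% and 6.07% in other cells. Doublets were not removed, and 4 gated cells at day 7 (8.33%) and 12 at day 12 (11.4%) lay above the 95th percentile of UMIs, against 4.97% and 4.87% of other cells. Of kept barcodes, 4 were shared between days 7 and 12, 1 between days 7 and 16 and 4 between days 12 and 16; none was gated in both libraries of a pair. The part of doublets in the results was not tested.

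RNA outside cells carried the same genes. In barcodes with under 100 UMIs, Isg15 stood at 49.3 CPM at day 7, 64.1 CPM at day 12 and 8.74 CPM at day 16, at or above its 39.5, 45.0 and 6.09 CPM in other cells of those days. Ifit1 stood at 8.03, 17.5 and 0.795 CPM in those small barcodes. Low levels in other cells therefore lie in the range of cell-free RNA, and its part in them was not tested. Levels in gated cells lay far above it, with 993 and 1214 CPM of Isg15.

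Outside the 5 genes, gated cells carried a broad interferon-induced programme at both days. Genes were compared where at least 10 UMIs were expected in gated cells from the level over all kept cells of the day, gated ones included. Of 9271 such genes, 116 were at least 2-fold higher in gated cells over both days (1.25% of those compared) and 116 were at least 2-fold lower (1.25%), each day having its own other cells as the comparison. The 5 gate genes are among the higher ones, which leaves 111 of 9266 (1.2%). In all, 10 genes passed the filter only through their UMIs in gated cells, among them Ifit3, Rsad2, Gbp2, Trim30d and Trex1, and 7 of the 10 were counted as higher. With the filter set on other cells alone and no gate gene, 105 of 9265 genes (1.13%) were higher and 118 (1.27%) lower. At both days singly, 93 genes (1%) were higher by that measure and 61 (0.658%) lower, over the 9271. Day 7 alone, with fewer gated cells, had 282 genes higher (3.04%) and 572 lower (6.17%), and day 12 alone had 127 higher (1.37%) and 180 lower (1.94%). On the interferon lists stood 72 of the 111 higher genes (64.9%) and 1 of the 116 lower genes (0.862%), against 131 of 9266 (1.41%). Since cells were chosen for 5 of these genes, and interferon-induced genes are known to move together, these shares are a description. The median log2 ratio over all 9271 genes was -0.00.

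Among the 20 largest ratios outside the gate, 18 belonged to the interferon lists. Rsad2 encodes viperin, an enzyme that makes a chain-terminating nucleotide against viral polymerases. It stood at 179 CPM in gated cells and 5.34 CPM in other cells at day 7, and at 219 CPM in gated cells and 5.87 CPM in other cells at day 12. Its ratio over both days was 36.2 (32.5 to 40.4), and it was detected in 25 of 48 gated cells at day 7 and 66 of 105 at day 12. Rsad2 was thus not detected in many gated cells. It passed the filter only through its UMIs in gated cells, with 9.19 UMIs expected from other cells alone. Its place among the largest ratios is therefore a description. Cmpk2, the mitochondrial nucleotide kinase gene next to Rsad2 in the genome, had a ratio of 8.87 (7.34 to 10.6).

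Genes of the 2'-5' oligoadenylate synthetase family, which sense double-stranded RNA, were also among the 20 largest ratios. Oasl1 stood at 87.7 CPM in gated cells and 7.14 CPM in other cells at day 7, and at 103 CPM in gated cells and 7.92 CPM in other cells at day 12. Oasl2 had a ratio of 12.2 (10.3 to 14.2) over both days. Ifi44, an interferon-induced gene of less settled function, stood at 143 CPM in gated cells and 12.5 CPM in other cells at day 7, and at 159 CPM in gated cells and 10.1 CPM in other cells at day 12. It was found in 32 of 48 and 76 of 105 gated cells, so it was spread over more of them than Rsad2. Slfn5, a Schlafen family member, had a ratio of 9.64, Ddx60, a helicase, 9.03 and Isg20, an exonuclease, 7.74. Apol9a and Apol9b, near copies of an apolipoprotein L gene, had ratios of 11.5 and 11.3, and reads could be split between them. Xaf1, a pro-apoptotic interferon-induced gene, had the smallest of the 20 ratios, 7.18 (6.24 to 8.22), and was detected in 29 of 48 and 84 of 105 gated cells.

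**Figure D2:**
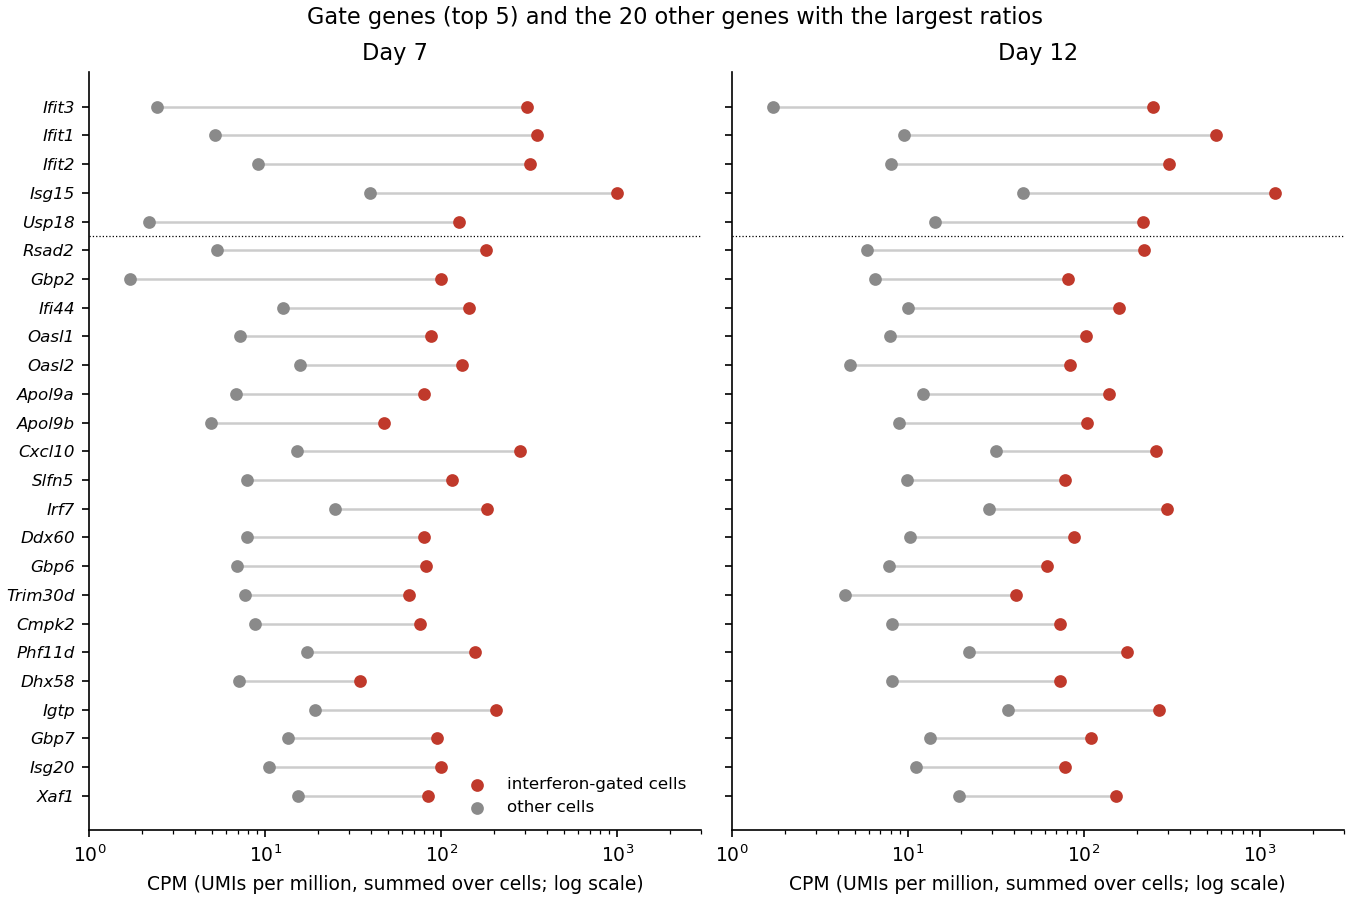
CPM summed over gated cells (red) and other cells (grey) at day 7 (left) and day 12 (right), on a log axis, for the 5 gate genes above the dotted line and the 20 other named genes with the largest ratios below it. Every red point lies right of its grey point at both days, which is how the rule and the ranking chose these genes; pooled ratios of the lower 20 run from 36.2 for Rsad2 to 7.18 for Xaf1.

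Across the whole antiviral effector list, 54 of the 74 genes found in the files passed the filter. Of these, 42 were at least 2-fold higher in gated cells, 39 of them at both days, and none was 2-fold lower, with a median log2 ratio of 1.57. Rsad2 and Trim30d passed only through the gated cells, and with the filter on other cells alone 40 of 52 were higher, with a median of 1.53. The 5 members with most gated UMIs had ratios of 0.920 to 2.12 only. Ifitm3, which blocks viral entry in endosomes, stood at 4589 CPM in gated cells and 3332 CPM in other cells at day 7, and at 5118 CPM in gated cells and 4024 CPM in other cells at day 12, a ratio of 1.30 (1.27 to 1.33). Ifitm2 and Ifitm1, of the same family, had ratios of 0.931 and 0.920. Ly6e, a GPI-anchored protein that alters the entry of several viruses, had a ratio of 2.12 (2.01 to 2.24), and Plac8, a cysteine-rich protein, 1.90 (1.81 to 1.99). The ratios of these abundant transcripts thus lay nearer to 1 than the list's median.

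Genes that attach ISG15 to proteins differed in size of ratio. Ube2l6, the conjugating enzyme of ISG15, had a ratio of 5.58 (4.44 to 6.93) and Trim25, a ligase for ISG15 and ubiquitin, 2.65 (2.24 to 3.11). Uba7, the activating enzyme, had 1.95 (1.39 to 2.66). Herc6, which acts as the main ISG15 ligase in mice, lay below the filter, with 34.7 CPM in gated cells and 2.00 CPM in other cells at day 7, and 32.2 CPM in gated cells and 4.11 CPM in other cells at day 12. Of the 3 genes past the filter, 2 were thus at least 2-fold higher, and the interval of Uba7 at day 7 alone, 0.862 to 3.65, included 1.

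Of the nucleic acid sensors and adaptors, 7 of 14 genes past the filter were at least 2-fold higher and none 2-fold lower. All 7 were so at both days, and the median log2 ratio was 1.11. With the filter on other cells alone, which leaves out the DNA exonuclease gene Trex1, 6 of 13 were higher and the median was 0.81. Dhx58, the RNA helicase LGP2, had a ratio of 7.90 (6.42 to 9.62). Zbp1, a sensor of Z-form nucleic acid, stood at 133 CPM in gated cells and 19.2 CPM in other cells at day 7, and at 172 CPM in gated cells and 37.5 CPM in other cells at day 12. Ifih1, the RNA sensor MDA5, had a ratio of 4.44 (3.70 to 5.28), and Ddx58, the RNA sensor RIG-I, 2.64 (2.21 to 3.14). Tmem173, which encodes the adaptor STING, had 1.21 (0.986 to 1.47) over both days. By day it had 1.99 (1.39 to 2.77) at day 7 and 0.995 (0.765 to 1.27) at day 12. Mavs, the adaptor of both RNA sensors, had 0.908. Over both days Dhx58, Zbp1, Ifih1 and Ddx58 were thus at least 2-fold higher, and the adaptors Tmem173 and Mavs were not 2-fold apart. These are picked members of the list, Mavs after its value was seen, so they give no rule for sensors against adaptors. At day 7 alone Tmem173 lay close to 2-fold.

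Signalling genes showed the same unevenness. Of 15 JAK, STAT and IRF genes, 5 were at least 2-fold higher and none 2-fold lower. Irf7, the amplifier of type I interferon production, stood at 182 CPM in gated cells and 24.7 CPM in other cells at day 7, and at 298 CPM in gated cells and 29.0 CPM in other cells at day 12. Stat2, a part of the type I and type III response complex, had a ratio of 5.60. Irf1, the early factor of type II responses, had a ratio of 1.59 (1.35 to 1.85), Irf9 1.71 and the kinase gene Jak1 1.04 (0.911 to 1.19).

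Receptors did not stand out. None of the 5 receptor genes past the filter was 2-fold apart, and their median log2 ratio was 0.23. Ifnar1 had a ratio of 1.17 (0.915 to 1.48), Ifnar2 1.24 (0.993 to 1.54), Ifngr1 1.28 (1.06 to 1.54) and Ifngr2 1.05 (0.932 to 1.19). Ifnlr1, the private chain of the type III receptor, had 7 UMIs in gated cells and lay below the filter. None of 21 interferon genes had a UMI in gated cells, which allows up to 7.52 CPM for their sum at day 7 and 3.30 CPM at day 12. Over all 21 genes other cells held 1 UMI at day 7 and 5 UMIs at day 12, so interferon transcripts were close to the limit of detection in both sets.

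The guanylate-binding proteins (GBPs) and immunity-related GTPases (IRGs), which attack membranes of intracellular pathogens, gave the largest list median. All 8 genes past the filter were at least 2-fold higher at both days, with a median log2 ratio of 2.84, and 19 genes of the list were in the files. Gbp2 passed only through the gated cells, and with the filter on other cells alone all of the other 7 were higher, with a median of 2.70. Igtp stood at 204 CPM in gated cells and 19.2 CPM in other cells at day 7, and at 267 CPM in gated cells and 37.0 CPM in other cells at day 12. Irgm1 had a ratio of 6.50 (5.72 to 7.35), Ifi47 6.31 (5.61 to 7.06), Gbp7 7.84 (6.71 to 9.12) and Gbp6 9. Reads could be split among near-identical members of these families. Gbp2 had a ratio of 17.2 (14.4 to 20.3) over both days, with 58.3 at day 7 and 12.4 at day 12. However, 1 cell held 61.2% of its gated UMIs at day 7 and 1 cell 33.0% at day 12. Without that cell the Gbp2 ratio was 22.9 at day 7 and 8.46 at day 12.

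Iigp1, an IRG that lay below the filter, was also held by a minority of gated cells. It stood at 165 CPM in gated cells and 1.23 CPM in other cells at day 7, and at 73.3 CPM in gated cells and 2.20 CPM in other cells at day 12. It was detected in 12 of 48 and 18 of 105 gated cells, against 0.502% and 0.614% of other cells. Of the gated cells with Iigp1, 7 at day 7 and 10 at day 12 also held Rsad2, which was found in 25 of 48 and 66 of 105 gated cells. Each of these transcripts was thus detected in only a part of the gated cells. Whether the rest lacked them or they were missed at this depth was not tested.

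Chemokine transcripts were likewise found in a minority of gated cells. Cxcl10, a T cell attractant induced by all interferon types, stood at 281 CPM in gated cells and 15.1 CPM in other cells at day 7, and at 258 CPM in gated cells and 31.8 CPM in other cells at day 12. It was detected in 16 of 48 and 28 of 105 gated cells, against 6.34% and 9.41% of other cells. The gated cell with most Cxcl10 held 37.7% of its UMIs at day 7 and 41.2% at day 12, and without that cell the ratio was 11.8 at day 7 and 4.84 at day 12. Cxcl9, best known as a target of type II interferon, was detected in 5 of 48 gated cells, all with Cxcl10, and in 2 of 105, of which 1 held Cxcl10. A single cell held 60.8% and 62.8% of its gated UMIs. Tnfsf10, the death ligand TRAIL, had a ratio of 2.62 (2.18 to 3.12) and was detected in 31 of 48 and 39 of 105 gated cells. Ccl25, an epithelial chemokine of the small intestine, was the 1 gene of the list that was 2-fold lower, with a ratio of 0.473 over both days. By single days it was 2-fold lower at day 7 and not at day 12.

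Antigen presentation on MHC class I was moderately higher. Of 19 genes past the filter, 6 were at least 2-fold higher and none 2-fold lower, with a median log2 ratio of 0.74. Tap1, which pumps peptides into the endoplasmic reticulum, had a ratio of 5.11 (4.40 to 5.90), and the immunoproteasome subunits Psmb8 and Psmb9 had 2.16 and 2.08. H2-K1, a class I heavy chain, stood at 638 CPM in gated cells and 401 CPM in other cells at day 7, and at 1491 CPM in gated cells and 959 CPM in other cells at day 12. B2m, the class I light chain, had a ratio of 1.75 (1.63 to 1.87).

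MHC class II was not 2-fold apart in any of its 6 genes past the filter, with a median log2 ratio of 0.25. Cd74, the invariant chain, stood at 975 CPM in gated cells and 885 CPM in other cells at day 7, and at 937 CPM in gated cells and 658 CPM in other cells at day 12. Cells with at least 3 class II UMIs, after every cell was thinned to 2500 UMIs, made up 50.0% of gated cells and 52.8% of other cells at day 7. At day 12 they made up 44.8% (35 to 54.8) of gated cells and 30.8% (29.5 to 32.2) of other cells. The class II share was thus higher in gated cells at day 12 beyond counting error, and within it at day 7.

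**Figure D3:**
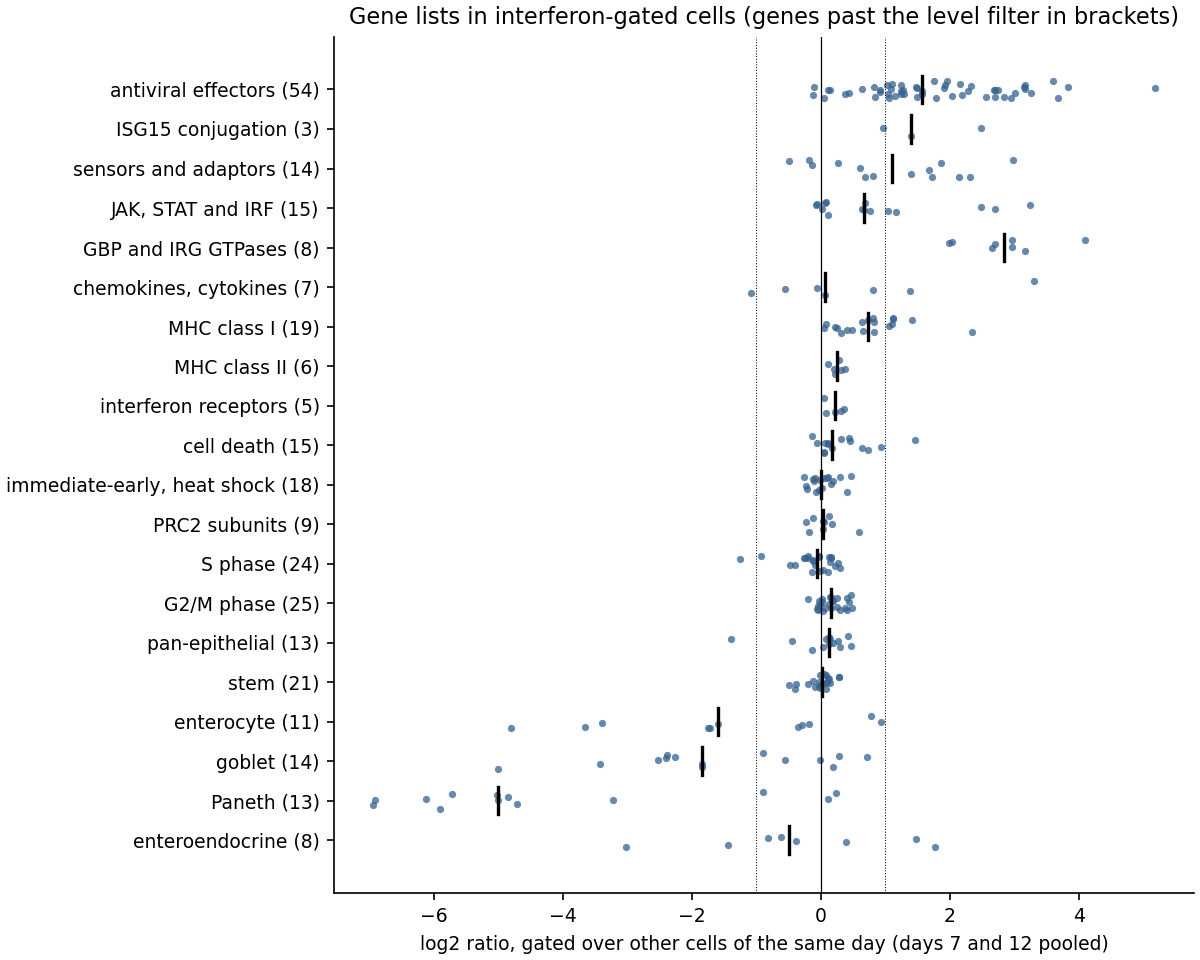
Each point is a gene past the level filter, placed by its log2 ratio of gated to other cells over days 7 and 12; lists run down the page with their number of genes in brackets, black bars are medians and dotted lines mark 2-fold. The GTPase (median 2.84) and antiviral effector (1.57) lists lie to the right, stem (0.02) and PRC2 (0.03) at 0, and goblet (-1.84), enterocyte (-1.59) and Paneth (-5.00) to the left.

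Other interferon-induced transcripts increased with the 5-gene sum, also among cells below the gate. The measure was the number of antiviral effector UMIs per cell thinned to 2500 UMIs, without Ifitm1, Ifitm2 and Ifitm3, an omission chosen after seeing the data. With those 3 abundant genes left in, the mean at day 7 was 18.9 effector UMIs in cells with none of the 5 genes and 20.3, 23.8 and 26.7 in the next classes, and 33.7 and 41.2 in the 2 gated classes. At day 12 the same means were 24.9, 27.1, 29.6 and 32.3, and 37.7 and 47.8 in the gated classes. Without the 3 genes, the mean at day 7 was 6.56 in cells with none of the 5 genes, 7.45 with 1 UMI, 9.76 with 2 to 3 UMIs and 12.6 with 4 to 7 UMIs. Gated cells had a mean of 18 with 8 to 19 UMIs and 26.3 with 20 or more. At day 12 the corresponding means were 6.16, 7.12, 8.57, 10.9, 16.5 and 24.8. Cells with 8 or more UMIs that were not gated because fewer than 3 genes were detected had 13.5 at day 7 and 14.9 at day 12, between the classes on either side. With the whole list they had 26 at day 7, below the 26.7 of cells with 4 to 7 UMIs, and 34.8 at day 12. Median total UMIs of these classes ran from 7533 to 10352 at day 7 and from 7383 to 10008 at day 12, before thinning. Single gated cells ranged from 5 to 58 effector UMIs at day 7 and from 7 to 70 at day 12, with medians of 18.5 and 19, against medians of 7 and 6 in other cells.

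GTPase transcripts were likewise found in more of the gated cells. After thinning, 38 of 48 gated cells at day 7 (79.2%, 65.0 to 89.5) held a UMI of the list, against 22.9% of other cells. At day 12 it was 91 of 105 gated cells (86.7%, 78.6 to 92.5), against 31.4% of other cells. Without thinning the shares were 93.8% and 99.0% of gated cells, against 51.0% and 63.8% of other cells. Even cells with none of the 5 genes held a GTPase UMI in 19% of cases at day 7 and 27.6% at day 12, which is the level against which these shares stand. Cells with 8 or more UMIs that were not gated stood at 72.7% at day 7, above the 71.0% of gated cells with 8 to 19 UMIs, and at 62.5% at day 12, below the 77.4% of those.

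**Figure D4:**
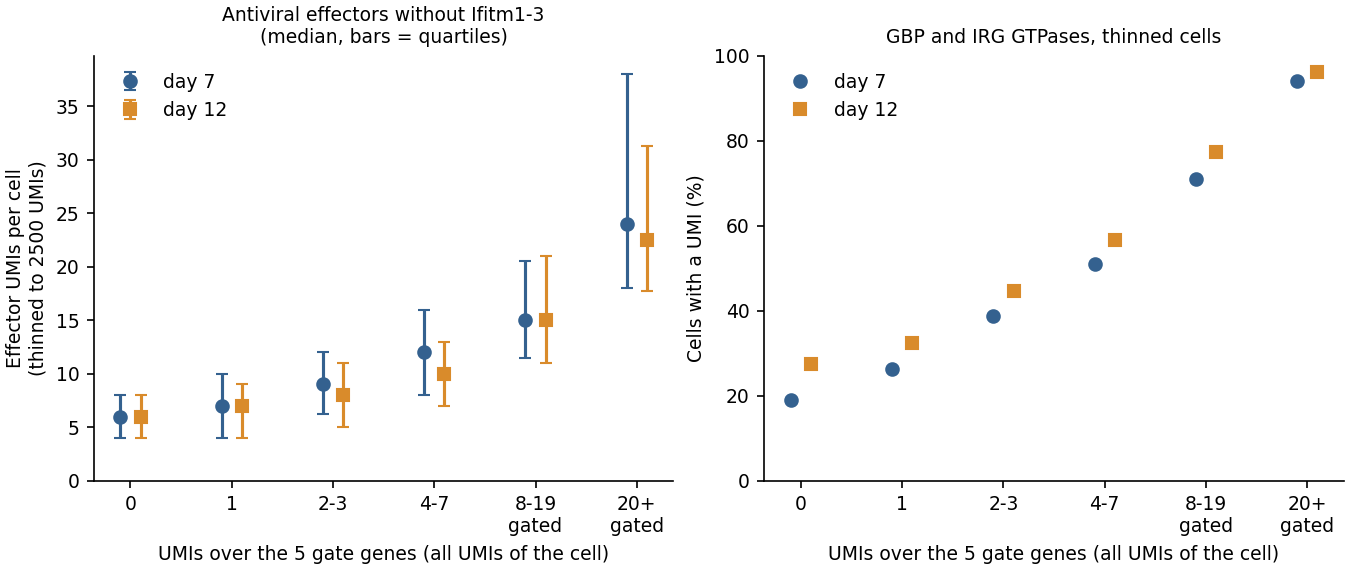
Left: antiviral effector UMIs, without Ifitm1, Ifitm2 and Ifitm3, per cell thinned to 2500 UMIs (median, bars are quartiles) by the cell's UMIs over the 5 gate genes. Right: percent of thinned cells with a UMI of the GTPase list. Circles are day 7 and squares day 12, and the 2 rightmost classes are gated cells. Both measures climb over the 6 classes plotted, which leave out ungated cells with 8 or more UMIs. Median effector UMIs run from 6 to 24 at day 7 and from 6 to 22.5 at day 12.

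Every gated cell carried epithelial markers, as did nearly every other kept cell. At least 3 pan-epithelial UMIs were found in all 48 and all 105 gated cells after thinning, against 99.8% and 99.96% of other cells. Epcam stood at 2333 CPM in gated cells and 1781 CPM in other cells at day 7. At day 12 it stood at 2104 CPM in gated cells and 2057 CPM in other cells. In barcodes with under 100 UMIs Epcam stood at 1384 and 1754 CPM at these days. The part of cell-free RNA in these counts was not tested. After thinning, no gated cell reached 3 UMIs of the T or NK, B or plasma cell, myeloid or erythroid lists. This allows a share of up to 7.40% at day 7 and 3.45% at day 12 for each list. Before thinning, 1 gated cell at each day reached 3 myeloid UMIs, with 4 and 3 of them. Of the 16 myeloid genes in the files, 11 had a UMI in any kept cell of days 7 and 12, and 3 passed the filter. In gated cells 14 of the 16 had no UMI, Lyz2 among them. Cd14, the endotoxin co-receptor, was not lower, with 30.6 CPM in gated cells and 25.7 CPM in other cells at day 7, and 16.1 CPM in gated cells and 16.4 CPM in other cells at day 12. The summed level of the myeloid list was 34.7 CPM in gated cells and 64.6 CPM in other cells at day 7, and 20.6 CPM in gated cells and 39.0 CPM in other cells at day 12. The T or NK list stood at 8.16 CPM in gated cells and 6.45 CPM in other cells at day 7, and at 5.37 CPM in gated cells and 7.05 CPM in other cells at day 12. Of its 13 genes in the files, 11 had a UMI in any kept cell of days 7 and 12, and none passed the filter. In gated cells 11 of the 13 had no UMI, which says little for genes this rare. The stromal or endothelial list reached 3 UMIs in 0 of 48 thinned gated cells and 3.01% of other cells at day 7, and in 23 of 105 gated cells (21.9%) and 26.1% of other cells at day 12. Before thinning it was 12.5% and 45.7% of gated cells, against 7.66% and 44.0% of other cells. Of its 14 genes, 10 had a UMI in any kept cell of these days, and 10 had no UMI in gated cells. Vim, a mesenchymal filament gene, held 29 of the list's 33 gated UMIs at day 7 and 577 of 596 at day 12. Vim stood at 59.1 CPM in gated cells and 98.9 CPM in other cells at day 7, and at 516 CPM in gated cells and 683 CPM in other cells at day 12. No UMI of the T or NK, B or plasma and myeloid lists at all was found in 33 of 48 and 81 of 105 gated cells.

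Stem cell markers were present in nearly all gated cells, as in the rest of the sort. At least 3 stem cell UMIs were found in 48 of 48 gated cells at day 7, against 97.2% of other cells, and in 103 of 105 at day 12 (98.1%), against 96.8% of other cells. None of 21 stem genes past the filter was 2-fold apart, with a median log2 ratio of 0.02. Lgr5, the gene behind the sort, stood at 202 CPM in gated cells and 197 CPM in other cells at day 7, and at 236 CPM in gated cells and 233 CPM in other cells at day 12. Smoc2, a secreted stem cell marker, had a ratio of 1.04 (0.972 to 1.10), and Sox9, a transcription factor of crypt progenitors, 1.22 (1.13 to 1.32). Olfm4 was the uneven one, with 167 CPM in gated cells and 242 CPM in other cells at day 7, and 15.2 CPM in gated cells and 9.96 CPM in other cells at day 12, where its level was low in both sets. Lgr5 and Olfm4 were named after their values were seen.

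Cell cycle genes were seldom 2-fold apart. None of 25 G2/M genes was 2-fold apart, and of 24 S phase genes 1, the replication factor gene Dtl, was 2-fold lower. After thinning, at least 3 G2/M UMIs were found in 39.6% of gated cells and 36.5% of other cells at day 7, and in 25.7% of gated cells and 23.4% of other cells at day 12. For S phase the shares were 39.6% of gated cells and 41.6% of other cells at day 7, and 34.3% of gated cells and 29.5% of other cells at day 12. Every one of these differences lay within the interval of the gated share, 25.8 to 54.7 at day 7 for both lists and 17.7 to 35.2 for G2/M and 25.3 to 44.2 for S phase at day 12. At other thresholds S phase at day 12 did not: with at least 2 UMIs it was 55.2% (45.2 to 65.0) of gated cells and 44.2% of other cells, and with at least 5 it was 26.7% (18.5 to 36.2) of gated cells and 17.7% of other cells. None of the 18 immediate-early and heat shock genes, which mark handling stress, was 2-fold apart, and their median log2 ratio was 0.01. None of 9 PRC2 subunit genes was 2-fold apart, with Ezh2, the methyltransferase, at a ratio of 1.14 (0.988 to 1.30) and Suz12, a core partner, at 0.879 (0.740 to 1.04).

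Cell death genes were mostly near 1. Mlkl, the executioner of necroptosis and itself interferon-induced, was the 1 gene of 15 that was 2-fold higher, with a ratio of 2.76 (2.03 to 3.68). Casp8 had 1.66 and Casp1 1.57. Bax and Bak1, which open the mitochondrial outer membrane, had 1.04 and 1.05.

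Many secretory and absorptive products had lower summed levels in gated cells. Of 13 Paneth genes past the filter, 10 were at least 2-fold lower, all at both days, with a median log2 ratio of -5.00 (-4.77 with thinned cells, or -2.62 with the 5 genes then at 0 set at 3 counts). Lyz1, the Paneth cell lysozyme, stood at 30.6 CPM in gated cells and 1676 CPM in other cells at day 7, and at 3.58 CPM in gated cells and 439 CPM in other cells at day 12. Defa24, a defensin, stood at 89.7 CPM in gated cells and 2844 CPM in other cells at day 7, and at 11.6 CPM in gated cells and 219 CPM in other cells at day 12. Reads of the defensin genes could be split among near-identical copies. Lyz1 and Defa24 were also abundant in small barcodes, at 1663 and 3042 CPM at day 7, so gated cells lay below the cell-free RNA as well. Mmp7, a Paneth protease that was present in most cells, had a ratio of 1.08. Lyz2 had no gated UMI and was at least 9.87-fold lower, taking 3 UMIs over both days as the bound.

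A sum over cells and a share of cells need not move alike. Of thinned other cells at day 7, 5.68% held at least 5 Paneth UMIs, where the mean was 8.63. How the product UMIs of each list were spread over the other cells was not tested. After thinning, cells with at least 3 Paneth UMIs made up 6.25% (1.31 to 17.2) of gated cells and 10.8% of other cells at day 7, and 14.3% (8.22 to 22.5) of gated cells and 21.1% of other cells at day 12. The mean over all thinned cells was 0.896 Paneth UMIs in gated cells and 8.63 in other cells at day 7, and 2.62 in gated cells and 3.61 in other cells at day 12. The share in other cells lay within the interval of the gated share at both days. At day 7 the mean differed far more than the share, and at day 12 both differed to a like degree. Before thinning, Mmp7 held 102 of 188 Paneth UMIs of gated cells at day 7 and 421 of 1035 at day 12. Itln1, also on the list, held 7 and 513, the latter with 163 in 1 cell. The Itln1 ratio was 0.0166 at day 7 and 0.946 at day 12. Lyz1 was detected in 25% of gated cells and 21.96% of other cells at day 7, and in 3.81% and 15.1% at day 12. A Paneth share here thus counts cells with UMIs of the list and need not count cells with Lyz1. Goblet genes, with 8 of 14 lower and a median log2 ratio of -1.84 (-0.52 at day 7 alone), were found in 22.9% of gated cells and 17% of other cells at day 7, and in 26.7% of gated cells and 23.6% of other cells at day 12. Spink4, a goblet peptide, had 268 of its 278 gated UMIs at day 7 in 1 cell, and without it the ratio at that day was 0.0281. With at least 2 UMIs asked for, the goblet share was higher in gated cells beyond counting error, at 50.0% (35.2 to 64.8) of gated cells and 33.7% of other cells at day 7, and 56.2% (46.2 to 65.9) of gated cells and 43.6% of other cells at day 12. Many goblet genes thus had lower sums in gated cells, while goblet shares at 2 or 3 UMIs were higher. With at least 5 UMIs the share was 6.25% of gated cells and 6.58% of other cells at day 7. At day 12 it was 5.71% and 6.67%, and both differences lay within counting error. The mean was 4.04 goblet UMIs per thinned gated cell and 3.50 per other cell at day 7, and 1.87 and 3.05 at day 12. Fxyd3, on the goblet list, held 201 of 711 goblet UMIs of gated cells at day 7 and 490 of 735 at day 12. It was detected in 95.8% and 92.4% of gated cells, against 79.0% and 86.9% of other cells. A goblet share here thus counts cells with UMIs of the list and need not count goblet cells. Enterocyte genes, with 6 of 11 lower and a median of -1.59 (-1.08 at day 7 alone and -0.13 to -0.36 under 3 of the settings tried), were found in 10.4% of gated cells and 11% of other cells at day 7, and in 9.52% (4.66 to 16.8) of gated cells and 4.72% (4.12 to 5.37) of other cells at day 12. Slc5a1, the glucose transporter SGLT1, and Anpep, a brush border peptidase, went the other way in that list, with ratios of 1.91 and 1.72. Tuft cells, with at least 3 UMIs of their list, were 0 of 48 and 0 of 105 gated cells, against 0.951% and 0.790% of other cells. The intervals of these gated shares reach 7.40% and 3.45%, so they do not show fewer tuft cells. Before thinning the shares were 2.08% of gated cells and 2.14% of other cells at day 7. At day 12 they were 5.71% and 5.64%.

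Read the other way, gated shares among cells with UMIs of a list mostly lay within counting error of the share of all kept cells. Several intervals were wide, and a cell with UMIs of a list need not be of that kind. Among cells with stem UMIs 1.29% were gated at day 7 and 2.28% at day 12, and among cells with goblet UMIs 1.68% and 2.54%. Among cells with Paneth UMIs 0.726% (0.150 to 2.11) were gated at day 7 and 1.53% (0.860 to 2.51) at day 12. Among cells with enterocyte UMIs 1.19% were gated at day 7 and 4.44% (2.15 to 8.02) at day 12, where all kept cells stood at 2.25%. Each of these intervals but that for MHC class II at day 12, 3.24% (2.39 to 4.28), held the share of all kept cells of its day.

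**Figure D5:**
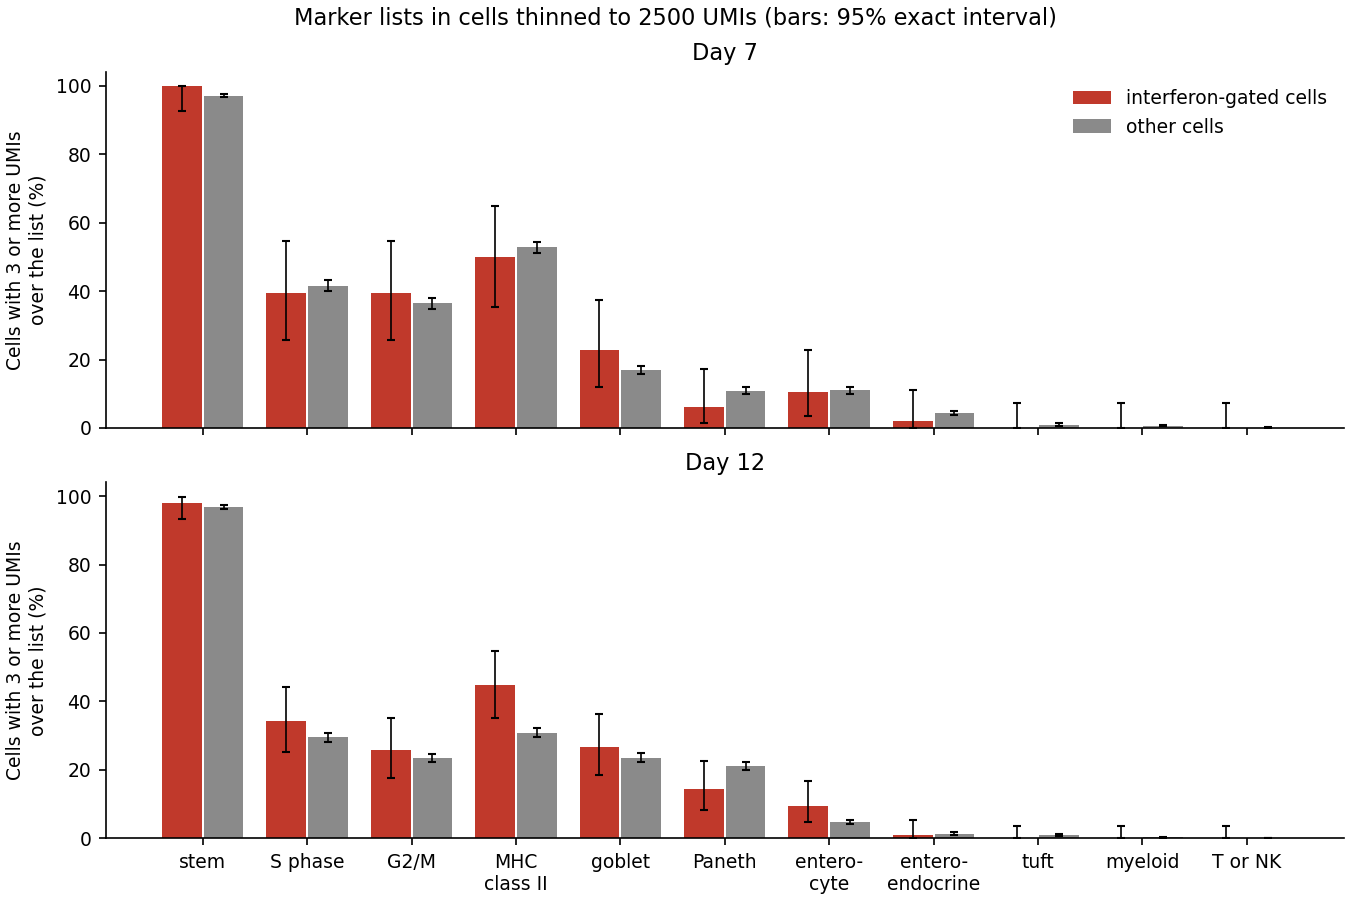
Percent of cells thinned to 2500 UMIs with at least 3 UMIs over a marker list at day 7 (top) and day 12 (bottom), gated cells in red and other cells in grey, with exact 95% intervals as bars. Stem shares are 100% and 98.1% of gated cells, against 97.2% and 96.8% of other cells, and the MHC class II share at day 12 is 44.8% against 30.8%.

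The core of the response element was more frequent among promoters of higher genes. With the gate genes left out, 89 of the genes at least 2-fold higher had a promoter in the table and 31 of them (34.8%) held the element's core, against 3.62% of the 7095 matched genes past the filter. With the filter on other cells alone it was 28 of 84 (33.3%). Of the 81 matched genes at least 2-fold lower, none held it. Among the 20 largest ratios, 10 of 18 matched genes held it. A core of the gamma-activated site, TTC and GAA with any 3 bases between, was found in 2726 of all 32851 promoters, 8.30%. Of the same 89 higher genes, 17 held it (19.1%), against 7 of 81 lower genes (8.64%) and 8.02% of matched genes past the filter. The 2 motifs were counted apart, on both strands, and a promoter may hold both.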

How the data were processed

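Single-cell 3' RNA of sorted mouse intestinal cells was measured in 1 library each of days 7, 12 and 16. The deposited matrices hold raw UMI counts for 24052 genes and all 6794880 barcodes each; per the submitters' processing notes Cell Ranger 3.0.2 was used and the build mm9 is named, with other steps not given in the sources used here. Bulk and chromatin tables of the series were not used here. Totals were 40817192, 46071956 and 42742373 UMIs. Doublets were not called. The members and the gene lists were chosen with earlier results of these data known.

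UMIs were summed over gated and over other cells of a day and given as CPM with exact Poisson intervals; ratios have exact conditional binomial intervals and shares Clopper-Pearson intervals, all at 95%. The ratio over both days divides gated UMIs by those expected from each day's other cells. A gene was compared where its level over all kept cells of each day, gated ones included, gave at least 10 UMIs for the gated cells, and was called at 2-fold. Of a gene with 0 UMIs a bound is given against 3 counts over both days. Shares of cells use cells thinned at random to 2500 UMIs (seed 1) and at least 3 UMIs over a list. No test was run, since cells of 1 library are not replicates. Intervals cover counting error only.

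Named genes are the gate genes, the 20 largest and 10 smallest ratios that lie on 1 side of 1 at both days (clone identifiers and mitochondrial genes left out), and up to 5 members per list with most gated UMIs. Named outside it, after their values were seen, are Lgr5, Olfm4, Mavs, Irf9, Stat2, Ifnlr1, Ccl25, Tap1, Psmb8, Psmb9, Mlkl, Dtl and Eed. A gene that the rule names is not reported here. The calculation of ratios was checked on counts simulated with known folds, which is no test of these data. Promoters are from RefSeq (GRCm38.p6). Python 3.11.15, NumPy 2.4.6, SciPy 1.17.1, pandas 2.3.3 and Matplotlib 3.10.9 were used. Other gates, filters, depths and weightings were tried.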

Additional observations from a re-analysis of the deposited data

Results flagged for a closer look

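The values below lay on opposite sides of 1 at days 7 and 12, each with a counting interval that left out 1; the difference between days was not tested. Chgb, a granin of enteroendocrine cells, had a ratio of gated to other cells of 0.166 at day 7 and 15.4 at day 12, where 171 of its 176 gated UMIs lay in 1 cell and the ratio without that cell was 0.445. The whole enteroendocrine list stood at 0.257 at day 7 and 2.59 at day 12, with 85.4% of its gated UMIs at day 12 in 1 cell. The G2/M list stood at 1.37 at day 7 and 0.907 at day 12, and Hmgb2, a chromatin protein gene of that list, at 1.18 and 0.876. Jun, an immediate-early transcription factor gene, stood at 0.895 at day 7 and 1.08 at day 12.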

How the results depend on the processing

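Each library is 1 day, so counting error is the only error given and no call rests on replicates. No paired analysis was possible because each day has 1 library and the results come from no test. Genes at least 2-fold higher numbered 116, and 247 with cells thinned to 2500 UMIs, 205 with at least 3 expected UMIs, 55 with at least 30 and 282 at day 7 alone. Genes at least 2-fold lower numbered 116, and 687 with thinned cells, 407 with at least 3 expected UMIs, 38 with at least 30, 572 at day 7 alone and 180 at day 12 alone. The gated share at day 7 was 1.70% with at least 5 UMIs over the gate genes, 0.783% with at least 12 and 0.678% with a gate on thinned cells (at least 3 UMIs and 3 genes). At day 12 it was 3.07%, 1.74% and 1.27% under those settings. Of 50 named genes past the filter that were 2-fold apart, 48 to 50 kept their side of 1 in each of 10 settings, and all 45 did so against other cells with no UMI of the gate genes, where the gate genes have no comparison. The exceptions were Chgb, at 0 in gated cells with no immune-list UMI and 0.166 at day 7 alone, and Tac1, at 0.725 and 0 in those settings.

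Shares of gated cells depend on depth and on the UMIs asked for. Without thinning they were 100% for stem at day 12, 60.4% and 60.0% for G2/M at days 7 and 12, 91.7% and 77.1% for S phase, 52.1% and 67.6% for Paneth, 68.8% and 49.5% for enterocyte and 75.0% and 81.9% for goblet. With at least 2 UMIs they were 43.8% for G2/M, 55.2% for S phase and 35.2% for Paneth at day 12, 22.9% and 19% for enterocyte at days 7 and 12, and 50.0% and 56.2% for goblet. With at least 5 UMIs they were 91.4% for stem and 16.2% for G2/M at day 12, 0% and 1.90% for enterocyte and 6.25% and 5.71% for goblet at days 7 and 12. List medians ran from 1.27 to 1.92 (antiviral effectors), 2.62 to 3.21 (GTPases), 0.67 to 0.88 (MHC class I), 0.71 to 1.40 (sensors) and -0.06 to 0.06 (stem) over the settings run. In these medians and those that follow, a gene with no gated UMI stands at 3 counts, and the value with such genes kept lowest is in brackets where it differs. The Paneth median of -5.00 was -4.36 (-4.70) with a gate of 12 UMIs, -3.95 as a mean of per-cell CPM, -2.62 (-4.77) with thinned cells, -4.41 in gated cells with no immune-list UMI and -3.38 (-4.24) at day 12 alone. The enterocyte median of -1.59 was -0.13 with at most 10% mitochondrial UMIs, -0.32 (-0.996) with thinned cells, -0.30 against other cells with no gate gene UMI, -0.36 with at least 30 expected UMIs and -0.24 (-1.08) at day 7 alone. The goblet median of -1.84 was -0.23 (-1.93) with thinned cells and -0.52 at day 7 alone. Setting the filter on other cells alone, chosen after seeing the data, gave 109 genes higher and 118 lower. The causes were not tested.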
